A study of Rattus norvegicus with 13 samples.

Results

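Glomeruli cut out of rat kidney by laser capture microdissection were profiled in 2 sets of arrays, titled LCM 20 (n = 4) and LCM 800 (n = 5), and the comparison of these sets is described here. The 9 arrays were chosen by their titles alone and are 9 of the 13 in the series. The remaining 4 arrays hold glomeruli isolated by sieving and enter the fit as a further estimate of spread, with a few of their values given for reference. Per the labels, all microdissected samples came from untreated Lewis-Hsd rats aged 18 weeks on a regular diet, from the kidney opposite to the one perfused with iron oxide, which was frozen directly after dissection. Sections were 10 µm thick, and RNA extracted with Trizol went through 2 rounds of amplification with the Arcturus HS Riboamp kit before labelling.

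The protocol of the LCM 20 samples names about 800 glomerular cross-sections, as does that of the LCM 800 samples. Only the titles tell the groups apart, and what the number 20 stands for is not stated. The labels are not free of conflict: the description field of the samples speaks of embryos, and anti-Thy1.1 rats appear in the extraction text of the sieved samples, while the source and treatment fields give untreated rat kidney throughout. The labels give no genetic alteration, and they do not say which samples came from the same animal or were processed together. P-values therefore measure only the spread between these arrays, which may be partly technical.

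The glomerulus is the capillary tuft at the head of each nephron, built from podocytes, mesangial cells and a fenestrated endothelium inside a capsule of parietal epithelial cells. Laser capture microdissection lifts such structures from a tissue section under the microscope, and the small amount of RNA obtained is multiplied by in vitro transcription. In common forms of this amplification each round primes from the poly(A) tail or at random within the copied RNA, so that the copies shorten toward the 3′ end of the transcript, and low-input RNA is known for losing rare transcripts in some samples and not in others.

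The arrays gave linear signals scaled to a common level, with median signals from 236 to 302 intensity units in LCM 20 and from 270 to 321 in LCM 800. Precision is limited by how few arrays there are. Podocyte markers were bright in both groups. Synpo, which encodes the actin-associated protein synaptopodin, had a median signal of 18874 in LCM 20 and 19617 in LCM 800, and Nphs1, which encodes the slit diaphragm protein nephrin, had 4558 and 4235. Markers of the tubule were present as well: the collecting duct water channel Aqp2 had a median of 2954 in LCM 20 and 9906 in LCM 800, and Umod, which encodes uromodulin of the thick ascending limb, 2090 and 2229.

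The LCM 800 arrays did not form a single cluster, and this bears on every comparison below. Pearson's r over the 11106 tested probe sets was 0.893 to 0.930 among LCM 800 replicates 1, 2 and 3 and 0.937 between replicates 4 and 5, but only 0.718 to 0.812 across these 2 sets. Replicates 4 and 5 correlated at 0.855 to 0.907 with the LCM 20 arrays, which correlated at 0.857 to 0.893 among themselves. Replicates 1 to 3 correlated at 0.651 to 0.860 with LCM 20. The sieved arrays gave 0.873 to 0.984 among themselves. These correlations are across probe sets within this set of arrays, and probe sets are not independent replicates.

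**Figure D1:**
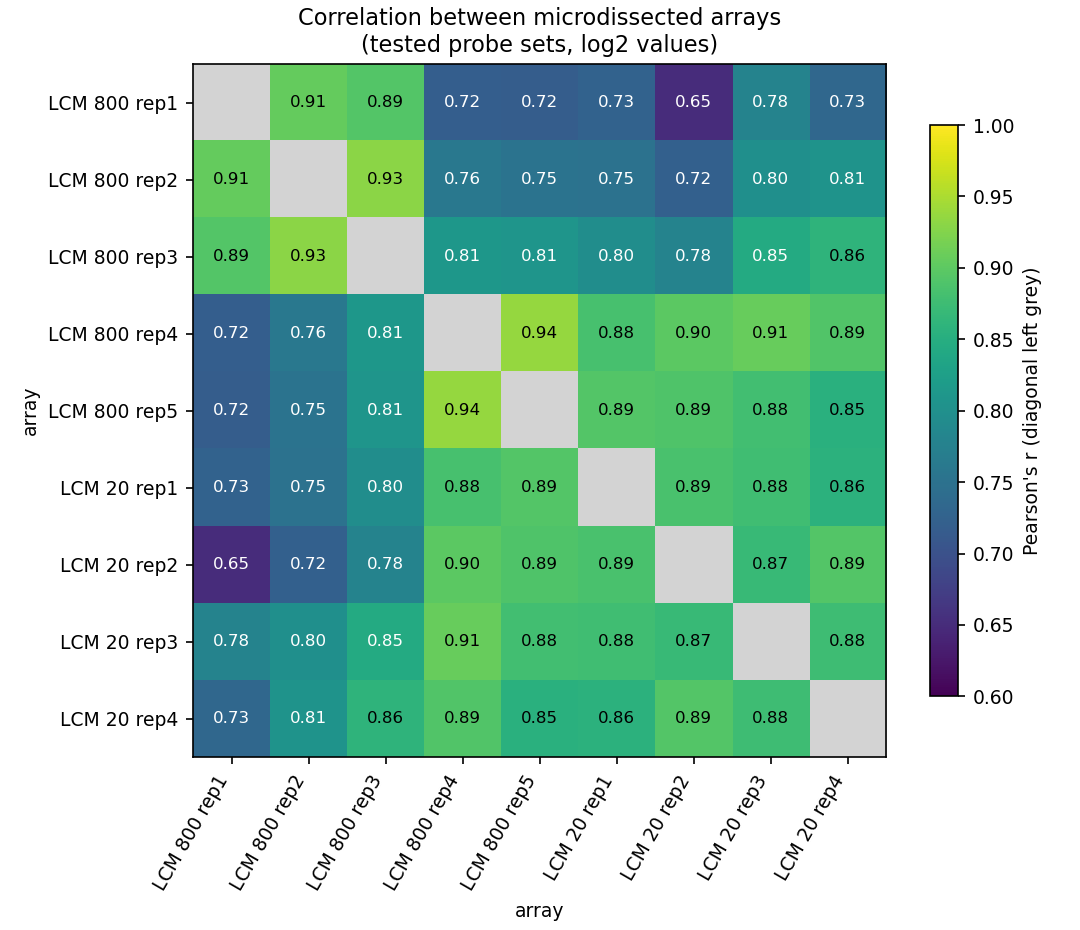
Pearson's r between the 9 microdissected arrays over 11106 probe sets on the log2 scale, with the colour and the printed value giving r and the diagonal left grey. LCM 800 replicates 1 to 3 form a block of 0.89 to 0.93, and their values with the other 6 arrays run from 0.65 to 0.86.

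For 3 of the 4 LCM 20 arrays the most similar array was one titled LCM 800. LCM 20 replicate 1 was nearest to LCM 800 replicate 5 (r = 0.892), and LCM 20 replicates 2 and 3 were nearest to LCM 800 replicate 4 (r = 0.899 and 0.907). LCM 20 replicate 4 was nearest to LCM 20 replicate 2 (r = 0.893). The first principal component of the 9 arrays held 47.6% of the variance and set LCM 800 replicates 1, 2 and 3 at 58.1, 49.6 and 35.6 against values from −45.3 to −7.65 in the other 6 arrays. The median standard deviation of a probe set was 0.364 log2 units over LCM 20 and 0.387 over LCM 800, against 0.264 within LCM 800 replicates 1 to 3, 0.187 between replicates 4 and 5 and 0.236 over the sieved arrays. These SDs rest on 4, 5, 3, 2 and 4 arrays in that order, with no correction for the number of arrays. Those of the smaller sets are therefore not strictly comparable with the others. No label records the division of the LCM 800 arrays, which was noticed in the data. It is given as a description, and the main comparison keeps all 9 arrays.

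Across all 15866 probe sets that are not controls, LCM 20 and LCM 800 lay close on average. The median difference of plain log2 signal, LCM 20 minus LCM 800, was −0.12 with quartiles of −0.46 and 0.23. The difference stayed within 1 log2 unit for 14263 probe sets (89.9%), while 574 were higher by at least 1 unit in LCM 20 and 1029 were lower by at least 1 unit. Among the 11106 probe sets kept for the test, 418 were higher and 418 were lower by at least 1 unit on the same plain scale. The excess of lower probe sets thus lay in the dimmest ones. Further values are on the scale log2(signal + 65.3), which makes changes of dim genes smaller than their signal ratio. Probe sets in the lowest 30% by mean level were left out, and limma's moderated test used all 13 arrays, with two-sided p values adjusted by Benjamini-Hochberg over 11106 probe sets. Among the tested probe sets the median difference was −0.06 (quartiles −0.31 and 0.22).

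With all arrays, 17 probe sets (0.153% of those tested) passed an adjusted p of 0.05, of which 8 were higher and 9 were lower in LCM 20. Their changes measured 1.08 to 2.20 log2 units in size, and the LCM 20 and LCM 800 ranges did not overlap for any of the 17. Of these, 12 carried 1 gene symbol and 5 carried none. An unadjusted p under 0.05 was reached by 1952 probe sets. The count rests on single arrays. Without LCM 800 replicate 1, 2 or 3, limma called 0 probe sets, with 1330, 1389 and 1514 at an unadjusted p under 0.05. Without LCM 800 replicate 4 or 5 it called 502 and 195. Without LCM 20 replicate 1, 2 or 3 it called 1, 0 and 10, with 1234 at an unadjusted p under 0.05 for replicate 2, and without replicate 4 it called 12, of which 3 were higher and 9 lower.

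Among genes past the test, the largest rise in LCM 20 was that of Tra2a, which encodes a splicing regulator. Its signal was 611, 667, 383 and 643 in LCM 20 replicates 1 to 4 and 30.4, 102, 118, 284 and 169 in LCM 800 replicates 1 to 5. The lowest LCM 20 array thus lay above the highest LCM 800 array, and LCM 800 replicate 1 was the lowest of all. The difference was 1.74 ± 0.30 (SE; n = 4 and 5; limma adjusted p = 0.0289). Tra2a was the single called member among the 606 tested genes of 24 gene lists, where it stands in the list of 37 spliceosome and hnRNP genes, with a list median of −0.04.

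Senp6, which encodes a protease that removes SUMO from proteins, had the most even LCM 800 values of the genes that rose. Its signal was 1601, 2399, 1456 and 1517 in LCM 20 and 694, 570, 657, 677 and 627 in LCM 800, so replicates 1 to 3 and replicates 4 and 5 did not stand apart. The rise was 1.32 ± 0.20 (SE; limma adjusted p = 0.0289).

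Ufm1, a small ubiquitin-like modifier that is attached to other proteins, had signals of 999, 1229, 928 and 1201 in LCM 20 and 360, 424, 505, 567 and 558 in LCM 800. It rose by 1.08 ± 0.18 (SE; limma adjusted p = 0.0289), the smallest change among the called genes. Arl3, a small GTPase of ciliary traffic, rose by 1.34 ± 0.22, from signals of 542 to 965 in LCM 800 to signals of 1606 to 2693 in LCM 20. Selenoh, which encodes a nuclear selenoprotein, rose by 1.24 ± 0.22, and Fam107b rose by 1.28 ± 0.23 (limma adjusted p = 0.0289 and 0.0362). In Fam107b the LCM 800 signals of replicates 4 and 5, 1753 and 1385, lay above the 840 to 1165 of replicates 1 to 3 and below the 2438 to 3492 of LCM 20.

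Tspan1, which encodes a tetraspanin of the cell surface, had the largest fall among the called genes with a symbol. Its signal was 55.4, 25.7, 61.0 and 33.5 in LCM 20, under the pseudocount in every array, and 438, 431, 510, 175 and 271 in LCM 800. The fall was by 1.92 ± 0.36 (SE; n = 4 and 5; limma adjusted p = 0.0413) on the log2 scale. Pitpnm2, a phosphatidylinositol transfer protein, had 173, 93.7, 275 and 349 in LCM 20 and 839, 1027, 934, 812 and 517 in LCM 800, and fell by 1.69 ± 0.28 (limma adjusted p = 0.0289). The ranges of both genes were apart, with LCM 800 replicate 4 or 5 the lowest of its group.

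Ly6g6e, a member of the Ly6 family of surface proteins, fell by 1.44 ± 0.27 (limma adjusted p = 0.0392), with LCM 20 signals of 28.8 to 88.4 and LCM 800 signals of 182 to 496. Tspyl2, which belongs to the family of nucleosome assembly proteins, fell by 1.16 ± 0.21 (limma adjusted p = 0.0392). Its LCM 800 signals were 402, 276, 310, 251 and 371, with no division between the replicates, against 150, 63.5, 72.2 and 164 in LCM 20. Fam193a fell by 1.34 ± 0.22 (limma adjusted p = 0.0289), although another probe set of the gene had a difference of 0.30 that did not pass. Ubtf, an RNA polymerase I transcription factor, was called through 1 of its 3 probe sets, at −1.18 (limma adjusted p = 0.0362), while the other 2 probe sets had −0.23 and 0.03.

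**Figure D2:**
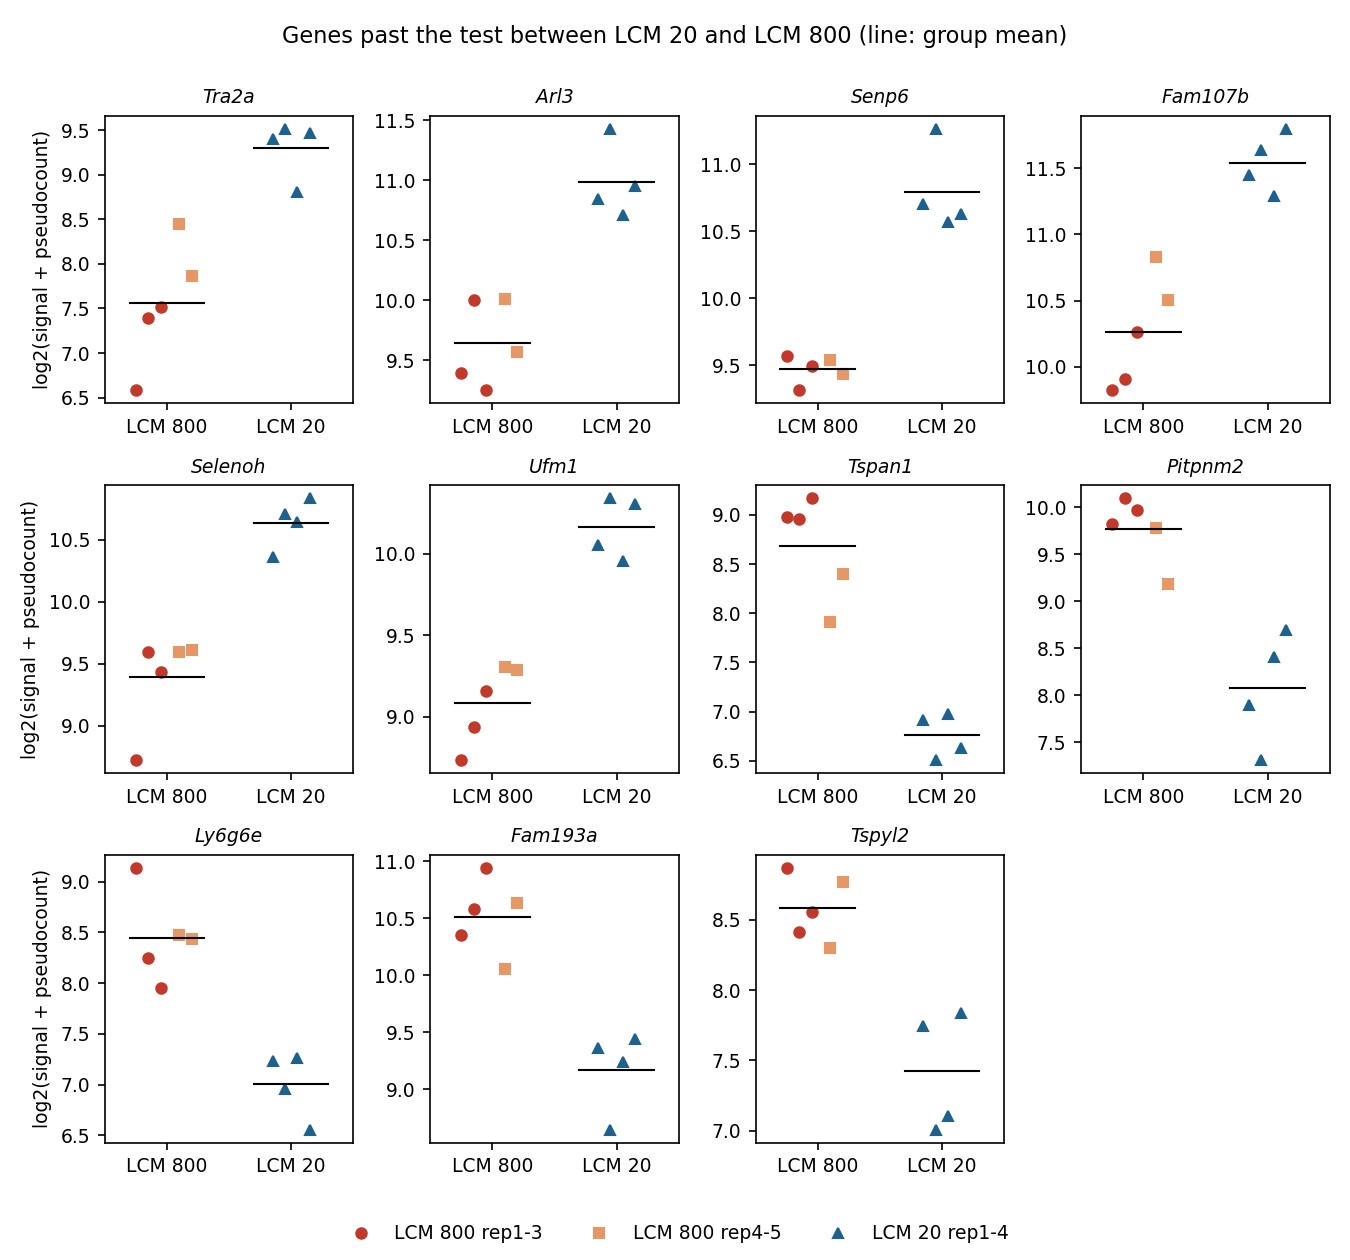
The log2(signal + 65.3) of the 11 genes whose brightest probe set passed the test, with 1 point per array, circles for LCM 800 replicates 1 to 3, squares for LCM 800 replicates 4 and 5, triangles for LCM 20 and a line at each group mean. In all 11 panels the LCM 20 and LCM 800 points do not overlap, and in Tra2a and Tspan1 the squares lie between the circles and the triangles.

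None of these calls held under every alternative. Over the alternatives tried, the limma adjusted p of the 11 genes ran from 0.000234 at the lowest to 0.153 for Tra2a, Arl3, Senp6, Selenoh, Ufm1 and Fam193a, and to 0.311 for Tspan1, the highest. Without LCM 800 replicates 4 and 5, all 17 probe sets passed, with changes of 1.19 to 2.28 in size. Without LCM 800 replicates 1 to 3, 1 of the 17 passed, a probe set without a symbol that was higher in LCM 20 by 2.71 (limma adjusted p = 0.0240), and the changes measured 0.86 to 2.71 in size.

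A wider set of genes had LCM 20 and LCM 800 arrays that did not overlap, whether or not they passed the test: 139 of 8081 genes (1.72%) with LCM 20 higher and 173 (2.14%) with LCM 20 lower. Among these, genes short of the test with large differences were Agtr1b, which encodes an angiotensin II type 1 receptor, at 1.83 ± 0.60, and Twf1, which encodes the actin monomer binding protein twinfilin, at 1.75 ± 0.40. The histone variant gene H2az1 had 1.73 ± 0.40 (SE), and the cytochrome b5 gene Cyb5a had log2 means of 9.53 in LCM 20 and 8.03 in LCM 800. The limma adjusted p of these 4 genes was 0.0748 to 0.156. In each of these, LCM 800 replicates 1 to 3 were the lowest arrays. H2az1 had signals of 489, 543 and 648 in LCM 800 replicates 1 to 3, 2726 and 1783 in replicates 4 and 5, and 2838, 4512, 3444 and 3008 in LCM 20. Agtr1b and Agtr1a are close paralogs, so that a probe set may read both.

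Aqp2, the water channel of the collecting duct principal cell, was the brightest gene among the largest differences with LCM 20 lower. Its signal was 5140, 1585, 2599 and 3309 in LCM 20 and 13925, 10661, 9906, 5950 and 7478 in LCM 800. All LCM 20 arrays lay below all LCM 800 arrays, and LCM 800 replicates 4 and 5 lay between LCM 20 and replicates 1 to 3. The difference of −1.64 ± 0.41 (SE; n = 4 and 5) did not pass (limma adjusted p = 0.0876). Fewer cells of a type and less RNA per cell cannot be told apart in such samples. Also apart and short of the test were Arid1a, a subunit of the SWI/SNF chromatin remodelling complex, at −1.66, Dock6, a guanine nucleotide exchange factor, at −1.57, the transcription coactivator gene Zmiz1 at −1.47 and the calpain family gene Capn15 at −1.44 (limma adjusted p from 0.0623 to 0.0748). A second probe set of Zmiz1 had −0.47.

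The rest of the loop, distal tubule and collecting duct list had the same sign more often than not. Of its 19 tested genes 6 had a positive difference, the median was −0.39 against −0.06 over all 8081 genes, and 0 passed the limma test, with 5 at an unadjusted p under 0.05. Over all 8081 genes, 1420 had a limma unadjusted p under 0.05, and the list counts here and below stand beside that share. Slc12a3, the thiazide-sensitive sodium chloride cotransporter of the distal convoluted tubule, had log2 values of 8.37, 7.56, 8.50 and 9.87 in LCM 20 and 11.20, 11.37, 10.24, 9.81 and 10.48 in LCM 800. LCM 20 replicate 4 lay inside the LCM 800 range, and the difference was −2.05 ± 0.47 (limma adjusted p = 0.0748). Scnn1b, the beta subunit of the epithelial sodium channel, was apart at −0.39. The marker gene Slc12a1 of the same nephron segments had the higher median signal in LCM 20, 365 against 271, with ranges that overlapped. LCM 20 replicate 2 had the lowest mean of this list, 8.42 against 8.95 to 9.25 in the other LCM 20 arrays, and without it the list median was −0.14.

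Of 38 proximal tubule genes, 0 passed the limma test (5 at an unadjusted p under 0.05), 16 were positive and the median was −0.05, or −0.28 without LCM 20 replicate 1. The difference between the tubule lists was not tested. The largest difference of the list was that of Cyp4a1, a fatty acid hydroxylase, at −1.71 ± 0.46 (limma adjusted p = 0.100). Slc34a1, the sodium phosphate cotransporter of the brush border, was apart at −1.16 ± 0.33 (limma adjusted p = 0.116), with signals of 6154, 4532 and 5379 in LCM 800 replicates 1 to 3, 1978 and 2279 in replicates 4 and 5, and 1871, 1031, 1914 and 1830 in LCM 20. The cut between replicates 1 to 3 and the rest was wider in this gene than the gap between LCM 20 and replicates 4 and 5. The proximal tubule marker Lrp2 had the higher median signal in LCM 20, 3760 against 2626, with ranges that overlapped. Ass1, which makes argininosuccinate, differed by 0.28, and the urinary glycoprotein gene Umod by −0.58, with LCM 20 replicate 2 the lowest array at a signal of 376 against 1999 to 3036 in the other LCM 20 arrays. Whether tubule RNA had a part in the other differences was not tested.

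Podocyte genes had differences of both signs and few large ones. The list of 20 tested genes had 0 past the limma test (5 at an unadjusted p under 0.05), 10 positive differences and a median of −0.05. Nphs1 differed by 0.11 ± 0.37, Synpo by −0.12 ± 0.27, Podxl, which encodes the sialoprotein podocalyxin, by 0.12 ± 0.25 and the transcription factor gene Wt1 by −0.27 ± 0.34. Vegfa, the endothelial growth factor made by podocytes, was the one member with ranges apart: its signals of 1387, 1399, 1538 and 1524 in LCM 20 lay below those of 1870, 2439, 2441, 2460 and 1937 in LCM 800, and the difference was −0.58 ± 0.19 (limma adjusted p = 0.158). A second probe set of Vegfa had −0.15, and 0.37 against LCM 800 replicates 4 and 5 alone.

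Endothelial and mesangial genes had medians of 0.11 (19 genes) and −0.18 (21 genes), with 0 past the limma test in each and 0 and 3 at an unadjusted p under 0.05. Kdr, the endothelial receptor for Vegfa, had signals of 10385, 13479, 7622 and 8436 in LCM 20 and 3810, 5496, 4864, 6697 and 9762 in LCM 800. The groups overlapped through LCM 800 replicate 5, and the difference was 0.74 ± 0.36 (limma adjusted p = 0.298). The mesangial surface antigen gene Thy1 had −0.74 ± 0.44 (another probe set at 0.035) and the platelet-derived growth factor receptor gene Pdgfrb −0.24 ± 0.29. The haemoglobin gene Hbb differed by 0.39 ± 0.59, with signals from 120 to 1428 in LCM 800 and from 261 to 2882 in LCM 20.

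Of 20 genes listed for checks of tissue and level, 16 were tested, 0 passed the limma test, and the ranges of 4 were apart: Vegfa, Aqp2, Slc34a1 and the translation elongation factor gene Eef1a1. Over all genes, ranges were apart in 1.72% with LCM 20 higher and in 2.14% with LCM 20 lower. A second probe set of Eef1a1 had a difference of 0.23. Hk1, which encodes hexokinase, differed by −0.23 ± 0.24.

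The lists of protein synthesis, respiration and proteasome genes had the most positive medians. The 26 translation factor genes had a median of 0.54 with 22 positive, the 39 cytosolic ribosomal protein genes 0.42 with 35 positive, the 68 oxidative phosphorylation genes 0.33 with 48 positive, and the 32 proteasome genes 0.24 with 21 positive, against −0.06 over all genes. With limma, 0 members of these lists passed, while 12, 15, 22 and 9 had an unadjusted p under 0.05. Over all genes, 1420 of 8081 had a limma unadjusted p under 0.05. LCM 20 was higher with ranges apart in 6 of the 39 ribosomal protein genes and 7 of the 68 oxidative phosphorylation genes, and lower in 0 of either, beside 1.72% and 2.14% of all genes. The medians of the 4 lists stayed positive under every alternative tried, between 0.09 for the proteasome genes without LCM 20 replicate 4 and 0.71 for the translation factors without LCM 800 replicates 4 and 5.

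The ribosomal protein list also showed which arrays carry the difference. Its mean log2 was 11.88, 12.03, 11.75 and 12.09 in LCM 20, 11.45, 11.74 and 11.66 in LCM 800 replicates 1 to 3, and 11.25 and 11.23 in replicates 4 and 5. All LCM 20 arrays lay above all LCM 800 arrays, with LCM 20 replicate 3 and LCM 800 replicate 2 next to each other. Rpl19, a protein of the large ribosomal subunit, had signals of 9576, 11861, 7609 and 13187 in LCM 20 and 3761, 5233, 6703, 4136 and 3133 in LCM 800, a difference of 1.21 ± 0.25 (limma adjusted p = 0.0699). Ribosomal protein genes have many near-identical copies in the genome, so these signals may join several loci.

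Among the respiratory genes with ranges apart, Ndufc1, a subunit of complex I, had a difference of 1.10 ± 0.24, and Ndufc2, also of complex I, 0.85 (neither passed). For Ndufs6, an accessory subunit of complex I, the log2 values were 12.12, 12.10, 12.65 and 12.61 in LCM 20 and 11.34, 11.68, 11.75, 10.98 and 11.07 in LCM 800. The ranges were apart (limma adjusted p = 0.0748), and LCM 800 replicates 4 and 5 were the lowest arrays here, not intermediate ones. Cox17, the copper chaperone of cytochrome c oxidase, and Uqcc3, an assembly factor of complex III, had differences of 1.08 ± 0.23 and 1.23 ± 0.27 (limma adjusted p = 0.0719 and 0.0739).

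**Figure D3:**
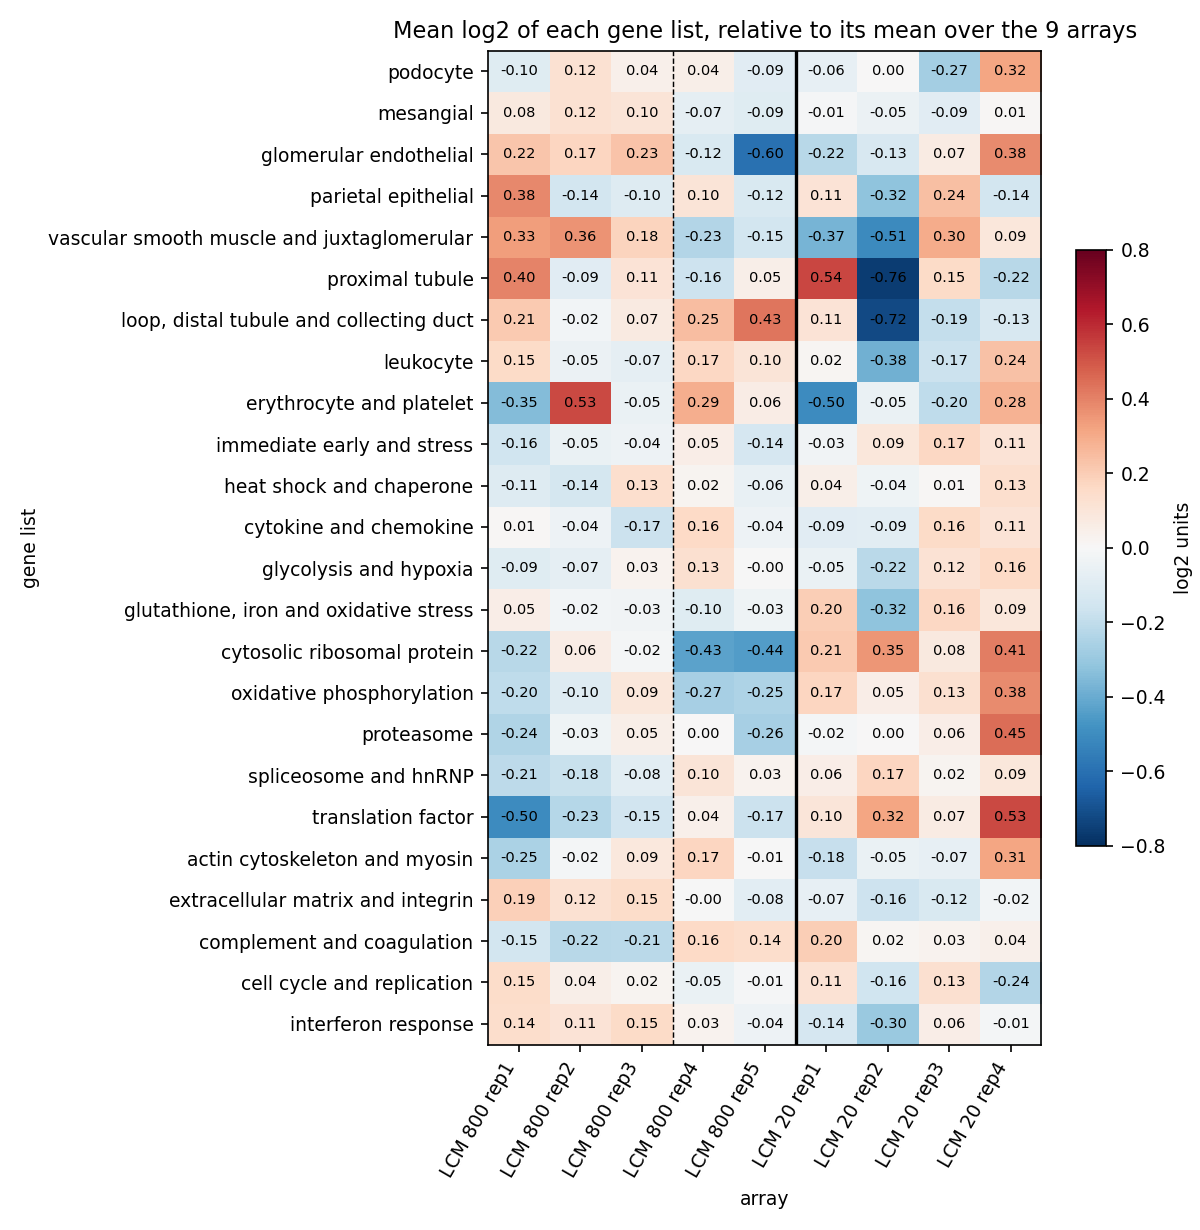
Mean log2 of 24 gene lists in the 9 microdissected arrays, each relative to the list's own mean over these arrays, in log2 units, with the solid line between LCM 800 and LCM 20 and the dashed line between LCM 800 replicates 3 and 4. The ribosomal protein row runs from −0.44 in LCM 800 replicate 5 to 0.41 in LCM 20 replicate 4, and both tubule rows have their lowest value in LCM 20 replicate 2.

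Leaving out LCM 800 replicates 4 and 5 changed the count of calls more than any other setting tried. Against LCM 800 replicates 1 to 3 alone, 958 genes (11.9% of those tested) passed with LCM 20 higher and 972 (12%) with LCM 20 lower. Against replicates 4 and 5 alone, 19 genes (0.235%) passed with LCM 20 higher and 0 with LCM 20 lower, with 786 in all at an unadjusted p under 0.05 in limma. Both of these smaller comparisons use the same 4 LCM 20 arrays, and the arrays were divided by a pattern seen in the data, so that the counts describe the division and carry no independent support. The genes below were picked for their size in them, after their values were seen.

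The largest differences against replicates 1 to 3 were in genes that LCM 800 replicates 4 and 5 shared with LCM 20. Oat, which encodes ornithine aminotransferase, had signals of 120, 12.7 and 198 in LCM 800 replicates 1 to 3, 905 and 1107 in replicates 4 and 5, and 4623, 859, 1303 and 859 in LCM 20. It was higher in LCM 20 by 3.29 ± 0.54 (SE) against replicates 1 to 3 and by 0.52 ± 0.57 against replicates 4 and 5. Uba2, a subunit of the enzyme that activates SUMO, was higher by 3.10 ± 0.36 and 0.12 ± 0.32 in the same order, and Tm2d1 had 3.02 ± 0.43 and −0.52 ± 0.49.

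In the opposite direction, Kiaa1614 had signals of 1416, 810 and 933 in LCM 800 replicates 1 to 3 and between 9.63 and 50.8 in the other 6 arrays, all under the pseudocount. Its difference was −3.48 ± 0.32 against replicates 1 to 3 and 0.23 ± 0.38 against replicates 4 and 5. Srrm2, a large protein of the splicing matrix, had 5327, 5369 and 3275 in replicates 1 to 3, 549 and 450 in replicates 4 and 5, and 264 to 1194 in LCM 20, with differences of −3.07 ± 0.35 and −0.04 ± 0.40. A second probe set of Srrm2 had −0.97 and −0.08. Cep164, a protein of the centriole's distal appendages, had −2.71 ± 0.34 and 0.02 ± 0.36.

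Another small group separated LCM 800 replicates 4 and 5 from all other arrays. Of the 23 probe sets past the test against replicates 4 and 5, all higher in LCM 20, 20 had their lowest values of all 9 arrays in these 2. Low values of replicates 4 and 5 against LCM 20 follow from how the 23 were picked. Only their place relative to replicates 1 to 3 was free, and the same count was not taken over all probe sets. Rpsa, a protein of the small ribosomal subunit also known as the laminin receptor, had signals of 1682 and 1148 in replicates 4 and 5, 15473, 17131 and 11180 in replicates 1 to 3, and 4707, 6935, 8329 and 6304 in LCM 20. LCM 20 thus lay between the 2 sets of LCM 800 arrays, with a difference of 2.16 ± 0.32 against replicates 4 and 5, −1.15 ± 0.28 against replicates 1 to 3 and 0.17 ± 0.66 against all 5. Its other 2 probe sets had 0.73 and 0.75 against replicates 4 and 5 and −0.41 and −0.65 against replicates 1 to 3.

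Pck2, the mitochondrial form of phosphoenolpyruvate carboxykinase, followed the same order, with signals of 720, 649 and 545 in LCM 800 replicates 1 to 3, 20.0 and 8.19 in replicates 4 and 5, and 380, 99.7, 193 and 221 in LCM 20. Bola2, which acts in iron-sulfur cluster traffic, had 2854, 4896 and 3117, then 406 and 585, then 1756, 2572, 2031 and 1995. In these genes the mean over all LCM 800 arrays lay near that of LCM 20 although neither set of LCM 800 arrays did. Trappc5, a subunit of the TRAPP vesicle tethering complex, had −0.53 ± 0.20 against replicates 1 to 3 and 1.78 ± 0.22 against replicates 4 and 5, and the transcription coactivator gene Edf1 had −0.26 ± 0.23 and 1.97 ± 0.27.

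Genes higher in LCM 20 than in either set of LCM 800 arrays, each past the limma test in both smaller comparisons, were Rpl19, Uqcc3, Cox17 and Vcp, which encodes an ATPase that extracts ubiquitinated proteins. Vcp had signals of 693, 797, 518 and 974 in LCM 20, 313, 377 and 520 in LCM 800 replicates 1 to 3, and 208 and 122 in replicates 4 and 5. The differences of Vcp were 0.78 ± 0.23 and 1.81 ± 0.26, those of Cox17 were 0.85 ± 0.22 and 1.43 ± 0.26, and against all 5 LCM 800 arrays none of the 4 genes passed. The highest LCM 800 array of Vcp, replicate 3, lay just above the lowest LCM 20 array.

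**Figure D4:**
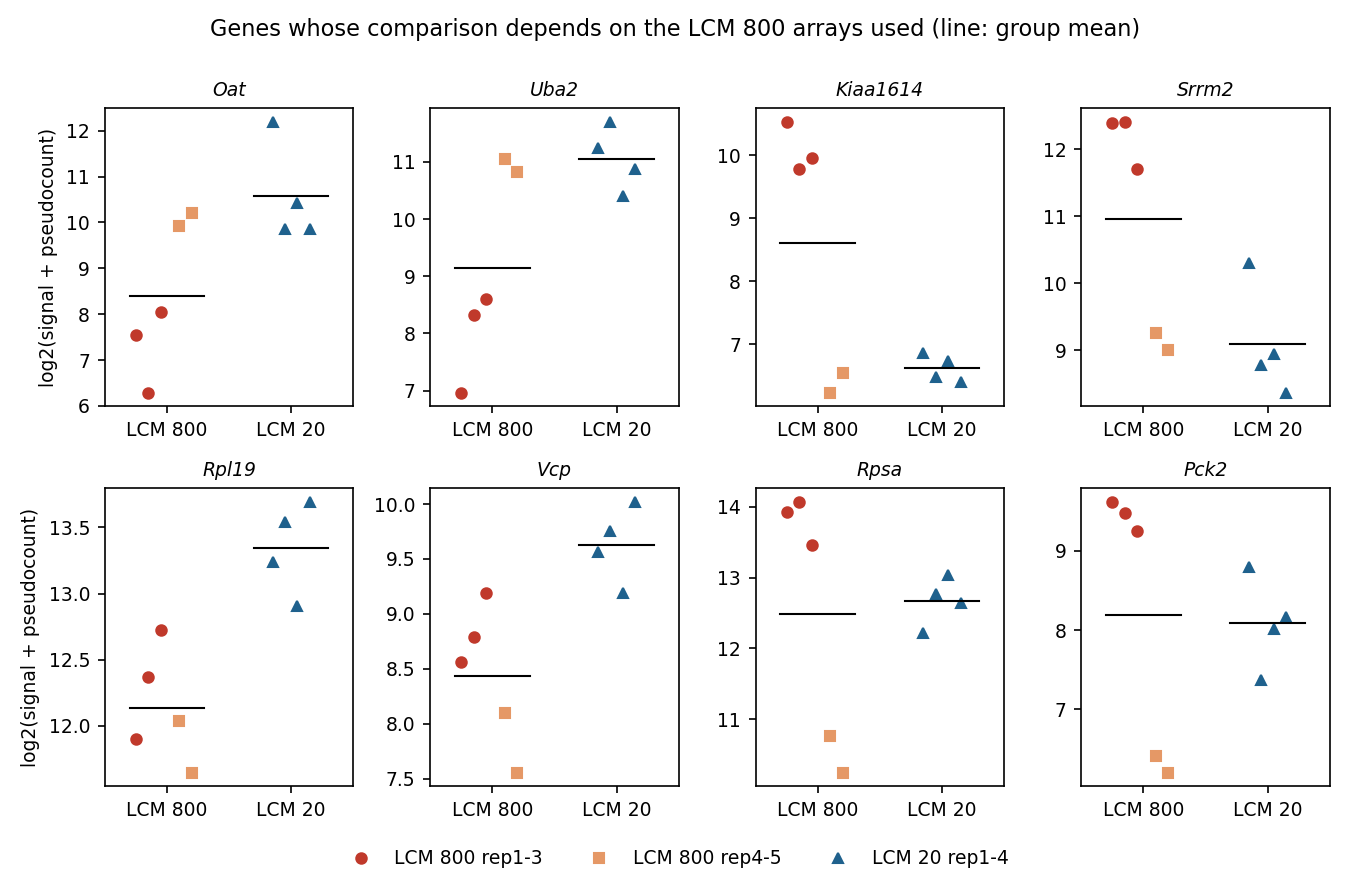
The log2(signal + 65.3) of 8 genes chosen after their values were seen, with 1 point per array, circles for LCM 800 replicates 1 to 3, squares for LCM 800 replicates 4 and 5, triangles for LCM 20 and a line at each group mean. In Oat, Uba2, Kiaa1614 and Srrm2 the squares lie with the triangles, and in Rpl19, Vcp, Rpsa and Pck2 the squares are the lowest points or among the lowest, as in Rpsa with signals of 1682 and 1148.

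By gene list, the difference against LCM 800 replicates 1 to 3 went in both directions within most lists. In the ribosomal protein list 10 of 39 were higher and 2 lower in LCM 20, led by Rpl7, a large subunit protein, at 1.95 ± 0.30 (another probe set at −0.59), with Rpsa and Rps28 as the 2 that were lower. In oxidative phosphorylation 20 of 68 were higher, led by the Rieske iron-sulfur protein gene Uqcrfs1 at 2.67 ± 0.38, and 6 were lower. In the translation factor list 10 of 26 were higher and 1 lower, with Eef1b2, a subunit of the elongation factor exchange complex, at 2.02 ± 0.23. These shares can be read beside the 11.9% and 12% of all genes, and no test of a list was made. Against replicates 4 and 5, 4 ribosomal protein genes passed, Rpl18, Rpl19, Rpl27a and Rpsa, and 1 oxidative phosphorylation gene, the complex I subunit gene Ndufb7. In that comparison 0.235% of all genes passed with LCM 20 higher. The other probe sets of Rpsa did not pass there.

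The counts that follow stand beside the same 11.9% and 12% of all genes. In the spliceosome list 9 of 37 genes were higher and 2 lower in LCM 20 against replicates 1 to 3, among them Hnrnpm, which encodes an hnRNP protein, at 1.62. The heat shock and chaperone list counted 7 higher and 6 lower of 24. Pdia6, a protein disulfide isomerase, was higher by 1.89 ± 0.31, while the cytosolic chaperone gene Hsp90ab1 had −1.87 ± 0.30 through its brightest probe set and −0.45 through another. Immediate early and stress genes counted 5 higher and 0 lower of 26, including the transcription factor genes Klf4 at 1.45 and Junb at 1.21. Against replicates 4 and 5 those 2 genes had −0.21 and −0.28.

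Among the glomerular lists, against replicates 1 to 3, podocyte genes counted 3 higher and 3 lower of 20, and the counts of this and the mesangial list lie near the 11.9% and 12% of all genes. Enpep, the aminopeptidase that cleaves angiotensin II, was higher by 2.24 ± 0.26, Ezr, which encodes the membrane-cytoskeleton linker ezrin, by 1.85, and Myh9, the non-muscle myosin heavy chain, had −1.82 ± 0.32. A second Enpep probe set had 0.19. Mesangial genes counted 2 higher and 3 lower of 21, with Gucy1a1, a subunit of soluble guanylate cyclase, at 1.43 (another probe set at −0.67) and the integrin gene Itga8 at −1.32. Endothelial genes counted 0 higher and 4 lower of 19, with a list median of −0.04 and 9 positive differences. The lower genes were the adhesion molecule gene Pecam1 at −0.71, the receptor gene Tie1 at −0.80, Rasip1, which acts in vessel lumen formation, at −1.24, and the fenestral diaphragm gene Plvap at −1.43. Kdr had 1.05 ± 0.37 with ranges apart and did not pass (limma adjusted p = 0.0528). Against replicates 4 and 5, Pecam1, Rasip1 and Plvap had 0.67, 0.24 and 0.34 and Tie1 had −0.04, and none of these passed.

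Distal nephron genes had a median of −0.37 against replicates 1 to 3, beside −0.08 over all genes, and of −0.64 against replicates 4 and 5, beside −0.04 over all genes. Against replicates 1 to 3, 3 of 19 were lower, Slc12a3 at −2.36, Aqp2 at −1.95 and Hsd11b2, the enzyme that inactivates glucocorticoid in the collecting duct, at −1.04, and 0 were higher. Against replicates 4 and 5 these had −1.57, −1.18 and −0.64, and none passed. Of all genes, 12% passed with LCM 20 lower and 11.9% with LCM 20 higher against replicates 1 to 3. The count of 3 of 19 lower genes lies near that share.

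None of the measures taken on whole arrays passed a test between LCM 20 and LCM 800. Exact two-sided permutation tests were run on 7 measures and adjusted over the 7 by Benjamini-Hochberg, and the smallest p that 4 against 5 arrays can give is 0.00794. The deviation and the counts of probe sets far below or above the others are taken relative to an array's own group. Their values within a group depend on each other, so the permutation p of these measures is only approximate. The root mean square deviation from the group mean, scaled for group size, was 0.457 ± 0.008 (SD, n = 4) in LCM 20 and 0.508 ± 0.074 (SD, n = 5) in LCM 800 (exact p = 0.175; adjusted p = 0.611). The share of probe sets under the pseudocount was taken over the tested probe sets, after the lowest 30% by mean level were left out. It therefore says little about loss of dim signals. This share was 2.17% ± 0.973 in LCM 20 and 2.01% ± 0.393 in LCM 800 (exact p = 0.817; adjusted p = 0.929). Both differences were smaller than the SD of the wider group, while the deviations of the 4 LCM 20 arrays, 0.450 to 0.466, lay close together. The order of the mean deviations turned when either set of LCM 800 arrays was left out, with LCM 20 minus LCM 800 at 0.144 without replicates 1 to 3 and 0.0957 without replicates 4 and 5, against −0.05 with all arrays.

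Signals that dropped far below those of the other arrays of their group occurred in both groups. Probe sets at least 2 log2 units below the median of the other arrays of the group numbered 19, 43, 19 and 16 in LCM 20 and 43, 14, 5, 83 and 107 in LCM 800 (exact permutation p = 0.349; adjusted p = 0.625). Those at least 2 units above numbered 50, 6, 10 and 41 in LCM 20 and 9, 10, 6, 59 and 59 in LCM 800 (exact permutation p = 0.929; adjusted p = 0.929). The highest counts were those of LCM 800 replicates 4 and 5, for which 3 of the 4 other arrays of the group are replicates 1 to 3.

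The array carries probe sets at the 3′ and 5′ ends of control transcripts, and the difference between them rises as copies shorten. For β-actin the 3′ minus 5′ log2 difference was 1.33, 1.52, 2.06 and 2.29 in LCM 20 and 2.80, 3.54, 4.01, 1.78 and 1.71 in LCM 800. LCM 800 replicates 1 to 3 were the 3 highest arrays, and replicates 4 and 5 lay inside the LCM 20 range. The group means of 1.80 ± 0.45 (SD, n = 4) and 2.77 ± 1.03 (SD, n = 5) lay apart by less than the SD of LCM 800 (exact permutation p = 0.143; adjusted p = 0.611). For Gapdh the means were 1.14 ± 1.38 and 1.22 ± 0.49 (exact permutation p = 0.857; adjusted p = 0.929), and for hexokinase 0.44 ± 0.31 and 0.23 ± 0.33 (exact permutation p = 0.357; adjusted p = 0.625). Neither of these 2 controls set replicates 1 to 3 apart. The β-actin difference moved with the division of the LCM 800 arrays, and its part in the gene differences was not tested.

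**Figure D5:**
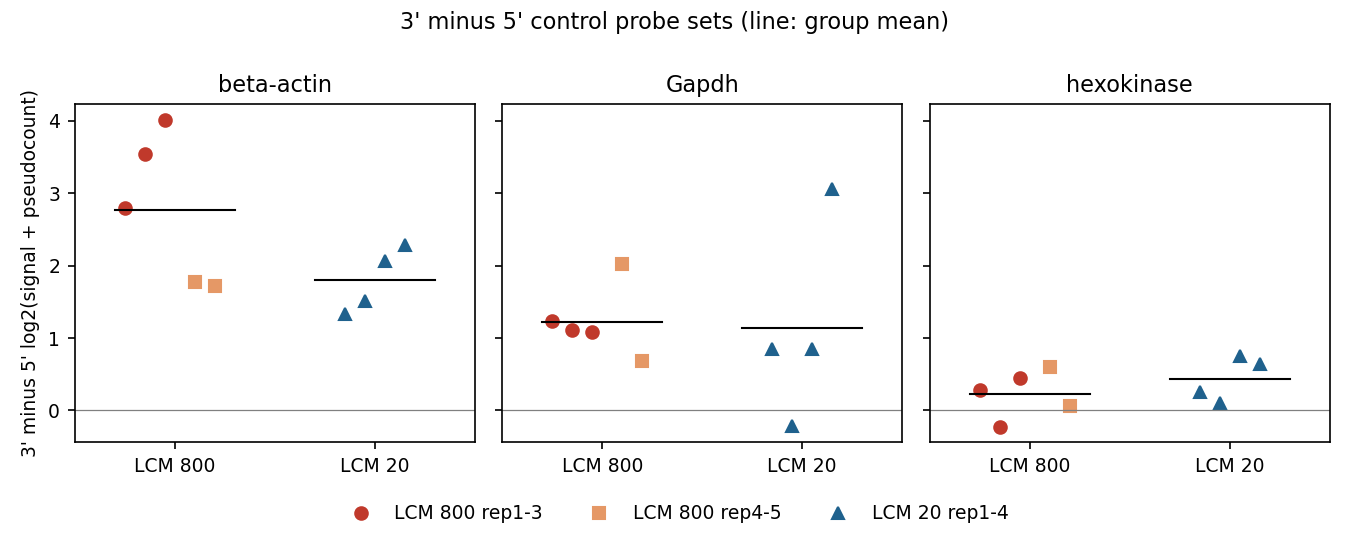
The 3′ minus 5′ difference in log2(signal + 65.3) of the β-actin, Gapdh and hexokinase controls, with 1 point per array, circles for LCM 800 replicates 1 to 3, squares for LCM 800 replicates 4 and 5, triangles for LCM 20 and a line at each group mean. The β-actin circles lie at 2.80 to 4.01, above the 6 other arrays at 1.33 to 2.29, while the Gapdh and hexokinase circles lie among the other points.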

How the data were processed

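RNA of 13 samples was measured on one-colour rat arrays, and the deposited table holds 15923 probe sets with 1 column of linear intensity values per sample, made by the authors with MAS5 per the submitters' processing notes. The version and settings were not given in the sources used here. The mean of each array without 2% of values at each end lay near 500.1, so no further normalization was applied, and scaling hides any shift in total RNA. Values were taken as log2(signal + 65.29), the 20th percentile of all signals. After removal of 57 control probe sets and of the lowest 30% by mean log2, 11106 were tested. Symbols came from the platform's annotation: 12783 probe sets had 1 symbol, 312 several and 2771 none. The brightest probe set with 1 symbol stood for each of 8081 genes.

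Differences and their tests come from limma (version 3.58.1, R 4.3.3): lmFit on all 3 groups together, then eBayes with its intensity trend, and Benjamini-Hochberg adjustment at 0.05. Errors given with ± are the fit's SE unless marked SD. The procedure was tested on simulated data for this comparison: over 11106 probe sets it recovered 48 of 100 changes of 1 log2 unit and 92 of 100 of 2 units, with 5 false calls. The simulated noise was normal, independent between probe sets and of equal SD in all groups. It did not hold the division inside LCM 800, so these rates need not apply to the real arrays. Array measures were tested with exact permutation tests. The arrays compared, the gene lists and the alternatives were chosen with earlier results of these data known. Named genes are the 10 largest past the test per direction (filled up from those with ranges apart), the 2 largest past the test per list, the 5 largest per direction past the test against both sets of LCM 800 arrays, and 20 listed genes. Genes named for the division of LCM 800, and other list members, were picked after their values were seen. Alternatives covered normalization, pseudocount, filter, variance model, samples in the fit, a replicate block, probe set choice and left-out arrays. Agreement between arrays under other settings was added after seeing the data. Some listed genes are not reported here.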

Additional observations from a re-analysis of the deposited data

Results flagged for a closer look

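In 140 groups of 4 or 5 arrays that were checked, 7 held a single array that stood apart from the others of its group by Dixon's criterion, and chance sets apart about 1 in 20 groups. Tra2a, called higher in LCM 20, had a log2 value of 8.81 in LCM 20 replicate 3 against 9.40 to 9.52 in the other 3 arrays, and Selenoh, also called higher, had 8.73 in LCM 800 replicate 1 against 9.43 to 9.61 in the other 4. Cyb5a had 9.89 in LCM 20 replicate 4 against 9.39 to 9.43. Slc34a1 had 10.10 in LCM 20 replicate 2 against 10.89 to 10.95. LCM 20 replicate 2 also had 43 probe sets at least 2 log2 units below the median of the other LCM 20 arrays, which had 16 to 19. Among the gene lists, the proteasome mean was 10.20 in LCM 20 replicate 4 against 9.73 to 9.81, and the complement and coagulation mean was 9.43 in LCM 20 replicate 1 against 9.25 to 9.27.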

How the results depend on the processing

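The call of 17 probe sets (8 higher, 9 lower in LCM 20) changed with most settings, and the cause was not tested. limma called 10 (6 and 4) with no pseudocount, 10 (7 and 3) with no filter, 12 (8 and 4) with the lowest 60% left out, 859 (448 and 411) with array weights, 11 (6 and 5) with 1 probe set per gene and 9 (6 and 3) with the mean of a gene's probe sets. It called 23 (23 and 0) without LCM 800 replicates 1 to 3 and 2581 (1264 and 1317) without replicates 4 and 5. With only the 2 groups in the fit it called 0, with 1496 at an unadjusted p under 0.05. With the replicate number as a block it called 0, with 2473, and the numbers did not pair the arrays (r of deviations from −0.22 to 0.145 for equal numbers). With single arrays left out the count ran from 0 to 502, 0 to 245 higher and 0 to 257 lower.

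Array measures, as LCM 20 minus LCM 800, also moved. Without LCM 800 replicates 1 to 3 the deviation was 0.144, the number of low probe sets 19.25 and the β-actin difference 0.051. Without replicates 4 and 5 the deviation was 0.0957, low probe sets 16.25 and high probe sets 23.4. With 4 times the pseudocount high probe sets were 3.95 and Gapdh 0.017. With single arrays left out, the share under the pseudocount ran from −0.309 to 0.429, high probe sets from −64 to 10.1 and Gapdh from −0.73 to 0.364. The 3′ minus 5′ measures were not run under quantile normalization.

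Genes that turned sign without LCM 800 replicates 1 to 3 were Tm2d1 (−0.52), Kiaa1614 (0.23), Cep164 (0.016), Pck2 (1.78), Gucy1a1 (−0.039), Klf4 (−0.21), Junb (−0.28), Hsp90ab1 (0.16), Bnip3 (−0.22), Synpo (0.064), Pecam1 (0.67), Pdgfrb (0.12), Hk1 (0.16) and Hbb (−0.17). Without replicates 4 and 5 they were Bola2 (−0.75), Rpsa (−1.15), Edf1 (−0.26), Trappc5 (−0.53) and Nphs1 (−0.067). With array weights they were Bola2 (−0.30), Rpsa (−0.54), Trappc5 (−0.17) and Nphs1 (−0.067), with the block Bola2 (−0.016) and Rpsa (−0.39), with no pseudocount Pck2 (0.59), and with quantile normalization Synpo (0.034). With single arrays left out, Bola2 ran from −0.13 to 0.72, Pck2 from −0.61 to 0.25, Rpsa from −0.39 to 0.57, Nphs1 from −0.15 to 0.29, Wt1 from −0.42 to 0.0062, the gene Pecam1 from −0.49 to 0.000839, Umod from −0.90 to 0.038 and Hbb from −0.15 to 0.91. Median r between arrays, added after seeing the data, was 0.724 to 0.857 across the 2 sets of LCM 800 arrays and 0.868 to 0.931 between replicates 4 and 5 and LCM 20 under 4 other settings. Signals under the pseudocount, as in Tspan1 and Kiaa1614, limit what fold changes can be read.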

Other observations

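Several lists not described in the report had medians on either side of the all-gene median of −0.06 in the main comparison. The 6 erythrocyte and platelet genes had a median of −0.38, with 0 called by limma and 1 at an unadjusted p under 0.05. Extracellular matrix and integrin genes had a median of −0.21 (43 genes), leukocyte genes −0.19 (20 genes), interferon response genes −0.16 (24 genes), actin cytoskeleton and myosin genes 0.02 (38 genes) and complement and coagulation genes 0.10 (19 genes), and limma called 0 members of these, with 8, 3, 5, 8 and 2 at an unadjusted p under 0.05. These counts stand beside 1420 of all 8081 genes at a limma unadjusted p under 0.05. Cd68, a macrophage lysosomal protein, had log2 values of 7.70, 7.56, 7.33 and 8.56 in LCM 20 and 9.26, 8.93, 8.44, 8.70 and 9.10 in LCM 800, a difference of −1.10 ± 0.25 (limma adjusted p = 0.0748). This was the lowest difference of the 20 leukocyte genes, of which 6 were positive and the highest had 1.05. The other leukocyte markers overlapped between the groups. Ptprc had the higher median signal in LCM 20, 207 against 128, and Cd74 the lower, 1061 against 2584. Tfpi, the inhibitor of the tissue factor pathway, had 7.66, 8.13 and 8.80 in LCM 800 replicates 1 to 3, 10.51 and 10.50 in replicates 4 and 5, and 10.21 to 10.94 in LCM 20. Of the extracellular matrix list, against replicates 1 to 3, 4 genes were higher and 7 lower in LCM 20, near the 11.9% and 12% of all genes, including the integrin gene Itgb5 at 1.40 (another probe set at −0.0041) and the small proteoglycan gene Bgn at −1.41.

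The genes whose LCM 20 and LCM 800 ranges were apart differed in median gene length, with quartiles that overlapped widely. The quartiles were 7.61 and 35.2 kb with LCM 20 higher, 13.7 and 65.3 kb with LCM 20 lower, and 9.58 and 54.7 kb over all genes tested. The median span on the genome, introns included, was 13.3 kb for the 139 genes with LCM 20 higher, 28.8 kb for the 173 with LCM 20 lower and 23.0 kb for all genes tested, with spans of the GRCr8 annotation for over 99% of each set. The mean log2 level of the first set was 10.35 in LCM 20, 9.52 in LCM 800 and 9.93 in the sieved arrays, and that of the second 9.05, 9.80 and 9.20. These are descriptions of the chosen genes, with no test.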
